A study of Homo sapiens with 4 samples.

Results

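The alpha-arrestins ARRDC1, ARRDC2, ARRDC3 and ARRDC4 and the thioredoxin-interacting protein TXNIP were followed in A2780s cells, a human ovarian adenocarcinoma line, after stable expression of an shRNA against GALNT3, which encodes a glycosyltransferase that starts mucin-type O-glycans. All array probes whose accession belongs to 1 of these 5 genes were taken, which gave 8 of 41000 probes and 5 of 17240 named genes. ARRDC1, ARRDC2 and ARRDC3 each had 2 probes, and ARRDC4 and TXNIP each had 1. The genes were chosen from the ratios of knockdown over control on these same arrays, so those ratios are given as a description, without a test.

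Total RNA was labelled in 2 colours and hybridised to 4 Agilent whole-genome arrays. On 2 arrays the knockdown clone sh-G1 was set against the control clone (ctrl), and on 2 arrays the knockdown clone sh-G2 was set against the same ctrl clone. The knockdown clone carried Cy5 in replicate 1 and Cy3 in replicate 2. Cells of both knockdown clones carried 1 shRNA sequence in the pSilencer puro vector, the ctrl clone was mock-transfected with that vector, and all were selected with puromycin. Each of the 3 lines is 1 clone, and the labels write the cell line of ctrl both as A2780s and as A27803. No source used here says that the 2 arrays of a clone hold separate RNA extracts, so they were counted as 1 replicate (n = 2 clones). Precision is limited by how few arrays there are.

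Between 95.9% and 97.6% of spots were well above background for ctrl and between 88.1% and 97% for the knockdown clones, the lowest on the second sh-G2 array, and 0 spots were saturated. All 4 arrays lay on 1 slide. The log2 ratios of all probes correlated between arrays with r of 0.61 and 0.73 where the dyes ran the same way, and with r of 0.32 and 0.19 between the dye-swapped arrays of 1 clone. The probe of GALNT3, the targeted gene, gave log2 ratios of -0.09 and 0.08 for sh-G1 and of 0.12 and -0.14 for sh-G2. It was well above background in ctrl on 4 of 4 arrays and in the knockdown channel on 2 of 4. GALNT3 was therefore close to the lower limit of the array and its ratio near 0, so the arrays did not show the knockdown. A probe this dim cannot decide whether GALNT3 fell. The paper reports that GALNT3 was significantly lower in both clones than in ctrl. It chose its clones on transcript, measured with RT-PCR, and on protein, measured with immunoblots. Here sh-G1 and sh-G2 are the clones labelled as knockdown.

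Alpha-arrestins are relatives of the beta-arrestins. They carry an arrestin fold and, near their C terminus, PPxY motifs that bind ubiquitin ligases of the NEDD4 family, and they serve as adaptors that bring membrane proteins to ubiquitination and endocytosis. TXNIP also binds thioredoxin and, like ARRDC4, restrains glucose uptake. Both TXNIP and ARRDC4 are known targets of the glucose-sensing transcription factor MondoA (MLXIP) with its partner MLX, which bind E-box-like elements in their promoters.

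The RefSeq sequences just upstream of the start site are shown for the members whose ratios differed most in direction, together with TXNIP, because TXNIP and ARRDC4 share a known regulator. Each holds the 250 bases before the annotated start, 5′ to 3′ on the strand of the gene, in the GRCh38.p14 build. Capitals mark matches to CACGTG, to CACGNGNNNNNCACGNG, to GTAAACA and to CCAAT on either strand, and no 2 matches overlap.
ARRDC4, chr15:97960453-97960702, plus strand: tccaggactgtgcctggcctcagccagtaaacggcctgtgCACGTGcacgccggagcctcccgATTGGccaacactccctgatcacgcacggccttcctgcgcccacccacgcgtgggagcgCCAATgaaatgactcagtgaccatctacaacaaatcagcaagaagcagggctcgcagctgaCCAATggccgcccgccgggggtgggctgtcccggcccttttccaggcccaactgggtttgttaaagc
TXNIP, chr1:145996580-145996829, minus strand: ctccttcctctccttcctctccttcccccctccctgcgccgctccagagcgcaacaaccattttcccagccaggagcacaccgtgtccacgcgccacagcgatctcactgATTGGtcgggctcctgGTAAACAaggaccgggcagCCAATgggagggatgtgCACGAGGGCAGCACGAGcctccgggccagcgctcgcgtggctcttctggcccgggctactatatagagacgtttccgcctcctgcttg
ARRDC3, chr5:91383318-91383567, minus strand: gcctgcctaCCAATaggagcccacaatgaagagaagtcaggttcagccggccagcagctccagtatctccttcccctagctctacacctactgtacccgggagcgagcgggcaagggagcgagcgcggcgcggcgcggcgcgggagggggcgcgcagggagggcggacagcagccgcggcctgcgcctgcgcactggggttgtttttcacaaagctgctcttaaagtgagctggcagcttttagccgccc
The ARRDC4 window held 1 E-box (CACGTG), 210 to 205 bases before the start, and 3 CCAAT matches. The TXNIP window held a pair of E-box-like elements spaced by 5 bases (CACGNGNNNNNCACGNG) from 88 to 72 bases before the start, 1 forkhead-like GTAAACA match from 124 to 118 bases, and 2 CCAAT matches. The ARRDC3 window held neither E-box pattern and 1 CCAAT match, 241 to 237 bases before the start. Among 35116 windows of that length, 6.345% held CACGTG, 0.046% (16 windows) held the paired element, 2.979% held GTAAACA and 32.008% held CCAAT. Of the windows not shown, the second annotated start of ARRDC3 had a GTAAACA match on the opposite strand, 29 to 23 bases before it. That of ARRDC1 and the second of ARRDC2 had 1 CCAAT match each, and the second of TXNIP and the first of ARRDC2 had 0 matches. The patterns were chosen after these sequences were seen, and a match is only a description of the letters.

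ARRDC3, an adaptor reported for the beta-2 adrenergic receptor and integrin beta 4, was higher in both knockdown clones. Its brighter probe, A_24_P274615, gave log2 ratios of 1.82 and 1.46 on the sh-G1 arrays and of 2.07 and 1.71 on the sh-G2 arrays. All 4 arrays were more than 1.5-fold higher. The mean of the clones was 1.76 ± 0.18 (SD, n = 2 clones), which is 3.40-fold, with 3.11-fold in sh-G1 and 3.70-fold in sh-G2. In mean log2 ratio the probe ranked 20 from the top of the 39151 probes kept.

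The single-channel levels of this ARRDC3 probe, on the log2 scale after normalisation between arrays, lay between 10.32 and 10.73 in the 4 ctrl channels. They lay between 11.94 and 12.14 in sh-G1 and between 12.45 and 12.51 in sh-G2. The order was ctrl, sh-G1, sh-G2, and no 2 clones overlapped. In bulk RNA a changed share of cells with a transcript and a changed amount per cell cannot be told apart, here or for the other genes.

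The other ARRDC3 probe, A_24_P414553, was among the dimmest probes, with only 8.07% of the probes kept below it in mean level. Its log2 ratios were 0.28 and 0.63 in sh-G1 and 0.39 and 1.12 in sh-G2. It was higher on 4 of 4 arrays and at least 1.5-fold higher on 2 of them. Its mean was 0.60 ± 0.21 (SD, n = 2 clones), below that of the brighter probe, and the 2 probes of ARRDC3 thus disagreed in size but not in direction. Its raw spot intensities were between 98.5 and 191 in the knockdown channels and between 70.5 and 121.5 in ctrl, so the added offset of 50 bears on its ratio. With an offset of 0 its mean was 1.08, and with the ratios of the scanner software it was 1.40 and at least 1.5-fold on all 4 arrays.

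ARRDC4, which like TXNIP restrains glucose uptake, went the other way from ARRDC3 and was lower in both knockdown clones. Its log2 ratios were -2.13 and -2.30 in sh-G1 and -1.52 and -1.91 in sh-G2. All 4 arrays were more than 1.5-fold lower, and sh-G1 was the lower clone on both. The mean was -1.96 ± 0.36 (SD, n = 2 clones), a level 3.90-fold lower, with 4.64-fold in sh-G1 and 3.27-fold in sh-G2. In mean log2 ratio it ranked 75 from the bottom of the probes kept.

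The levels of ARRDC4 lay between 9.32 and 9.61 in ctrl, between 7.18 and 7.32 in sh-G1 and between 7.48 and 8.04 in sh-G2. The order was sh-G1, sh-G2, ctrl, and no 2 clones overlapped. Its raw spot intensities were 112.5 to 209 in the knockdown channels against 657 to 958 in ctrl. It was well above background in both channels on 4 of 4 arrays. At such intensities the offset draws the ratio toward 0, and with an offset of 0 the mean was -2.37.

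**Figure D1:**
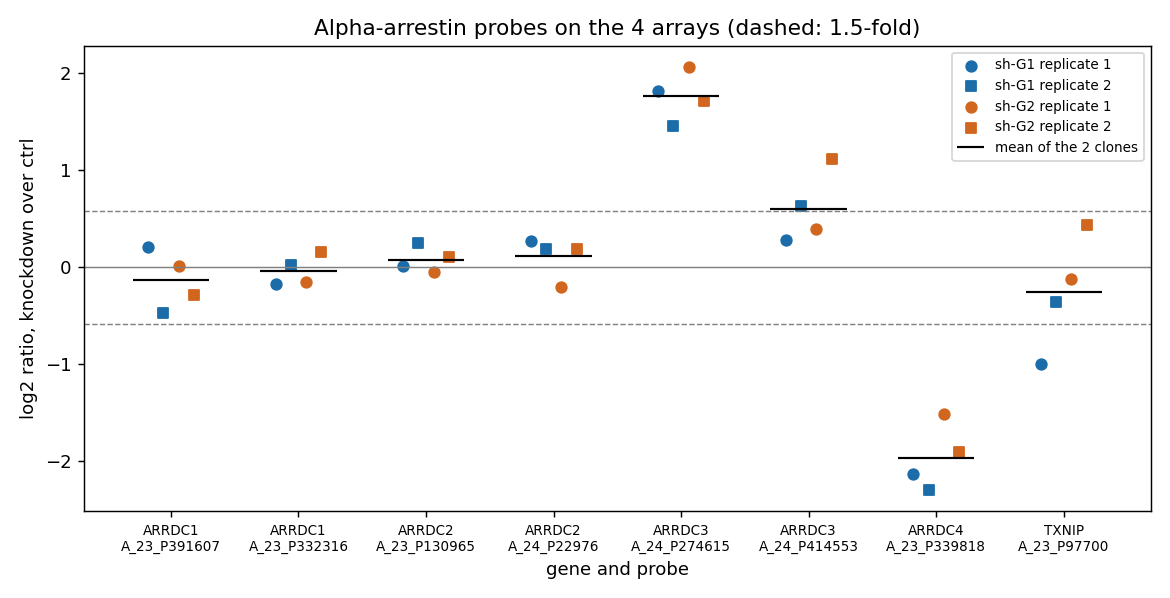
Log2 ratio of knockdown over ctrl (vertical axis) for the 8 probes of the 5 genes (horizontal axis) on each of the 4 arrays, with the clone as colour, the replicate as marker shape, a black line at the mean of the 2 clones and dashed lines at 1.5-fold. The brighter ARRDC3 probe lies between 1.46 and 2.07 and ARRDC4 between -2.30 and -1.52, while the ARRDC1 and ARRDC2 probes lie inside the dashed lines on all 4 arrays.

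TXNIP, which binds and inhibits thioredoxin, was lower in sh-G1 and near ctrl in sh-G2. Its log2 ratios were -0.99 and -0.36 in sh-G1 and -0.12 and 0.43 in sh-G2. In this main processing both sh-G1 arrays lay below both sh-G2 arrays, and 1 array was at least 1.5-fold lower. By the same ratios the Cy5 array was lower than the Cy3 array in each clone. The sh-G1 arrays averaged -0.67, the sh-G2 arrays averaged 0.16, and the mean of the clones was -0.26 ± 0.59 (SD, n = 2 clones). Across 9 ways of processing the arrays, the main one among them, the sh-G1 mean stayed between -0.70 and -0.67 and the sh-G2 mean between 0.14 and 0.20. Those that changed the filter on dim probes or kept outlier spots left the mean of the clones at -0.26. The deposited series matrix, also among them, lacks a ratio for the second sh-G1 array. The mean of the clones moved with the arrays used, to -0.10 without the first sh-G1 array, -0.42 without the second, -0.12 without the first sh-G2 array and -0.40 without the second.

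TXNIP levels ran from 12.31 to 12.80 in ctrl, from 11.77 to 12.12 in sh-G1 and from 12.68 to 12.74 in sh-G2. The sh-G1 channels lay below all others, whereas sh-G2 overlapped ctrl. The probe was bright, with 86.8% of the probes kept below it in mean level.

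**Figure D2:**
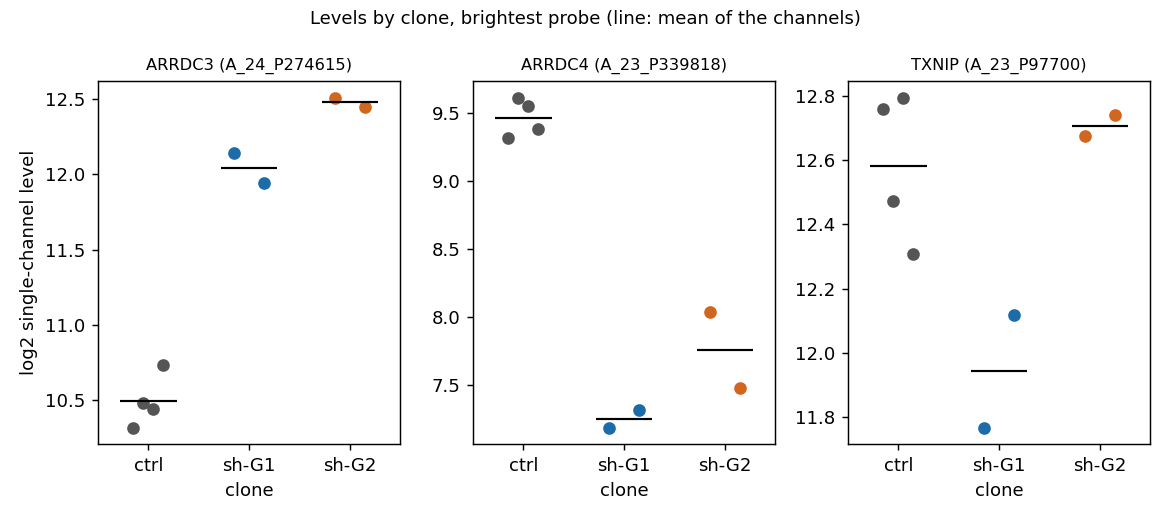
Log2 single-channel level (vertical axes, each with its own range) of the brightest probe of ARRDC3, ARRDC4 and TXNIP in the 4 ctrl, 2 sh-G1 and 2 sh-G2 channels (points), with a line at the mean. The clones do not overlap for ARRDC3 or ARRDC4, and for TXNIP the sh-G1 channels, at 11.77 and 12.12, lie below ctrl while sh-G2 overlaps ctrl.

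ARRDC1, which directs budding of vesicles from the plasma membrane through TSG101, was near ctrl. Its brighter probe, A_23_P391607, gave log2 ratios of 0.21 and -0.47 in sh-G1 and of 0.01 and -0.28 in sh-G2. In both clones the ratio was above 0 with Cy5 and below 0 with Cy3. Its mean of -0.13 was the same in both clones to 2 decimals, but it was 0.041 with the scanner software's ratios, 0.036 without the second sh-G1 array and -0.30 without the first, so its direction is not settled. Its levels in ctrl, 10.31 to 10.85, overlapped both knockdown clones. The other probe, A_23_P332316, gave -0.17 and 0.03 in sh-G1 and -0.15 and 0.15 in sh-G2, with a mean of -0.04 ± 0.05 (SD, n = 2 clones). The signs of this probe followed the dyes the opposite way.

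ARRDC2, a less studied member that also carries PPxY motifs, was near ctrl by both probes. A_23_P130965 gave log2 ratios of 0.01 and 0.25 in sh-G1 and -0.05 and 0.11 in sh-G2, with a mean of 0.08 ± 0.07 (SD, n = 2 clones). A_24_P22976 gave 0.27 and 0.19 in sh-G1 and -0.20 and 0.19 in sh-G2, with a mean of 0.11 ± 0.16 (SD, n = 2 clones). Each was higher on 3 of 4 arrays and lower on the first sh-G2 array. By level, sh-G1 lay just above ctrl for both probes and sh-G2 overlapped ctrl.

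By the rule of at least 1.5-fold in 1 direction on all 4 arrays, 1 of the 8 probes was higher, against 0.230% of all probes kept, and 1 was lower, against 0.920%. Since this contrast chose the genes, nothing is read from these counts.

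The 2 knockdown clones were also set against each other, sh-G2 minus sh-G1, a difference in which ctrl cancels. Over all probes limma, with a term for dye and Benjamini-Hochberg adjustment, called 0.123% (48 of 39151) different between the clones. Each clone is a single clone, and this fit takes its spread from the arrays, which may be technical. The ratios of both clones were known when the genes were chosen, so the differences of the 5 genes are given as values with no test.

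TXNIP had the widest difference among the 8 probes, with sh-G2 above sh-G1 by 0.87 on the log2 scale between the Cy5 arrays and by 0.79 between the Cy3 arrays. For ARRDC4 sh-G2 was above sh-G1 by 0.62 and by 0.39. In both genes the higher clone was therefore the same in both dye orientations.

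For ARRDC3 sh-G2 was above sh-G1 by 0.24 and 0.26 by the brighter probe, and by 0.12 and 0.49 by the dimmer one. The brighter ARRDC1 probe gave -0.19 between the Cy5 arrays and 0.19 between the Cy3 arrays, and the other gave 0.02 and 0.13. The ARRDC2 probes gave -0.06 and -0.14 for A_23_P130965 and -0.47 and 0.00 for A_24_P22976. The brighter ARRDC1 probe thus had opposite signs in the 2 orientations, and both ARRDC3 probes had sh-G2 higher in both.

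**Figure D3:**
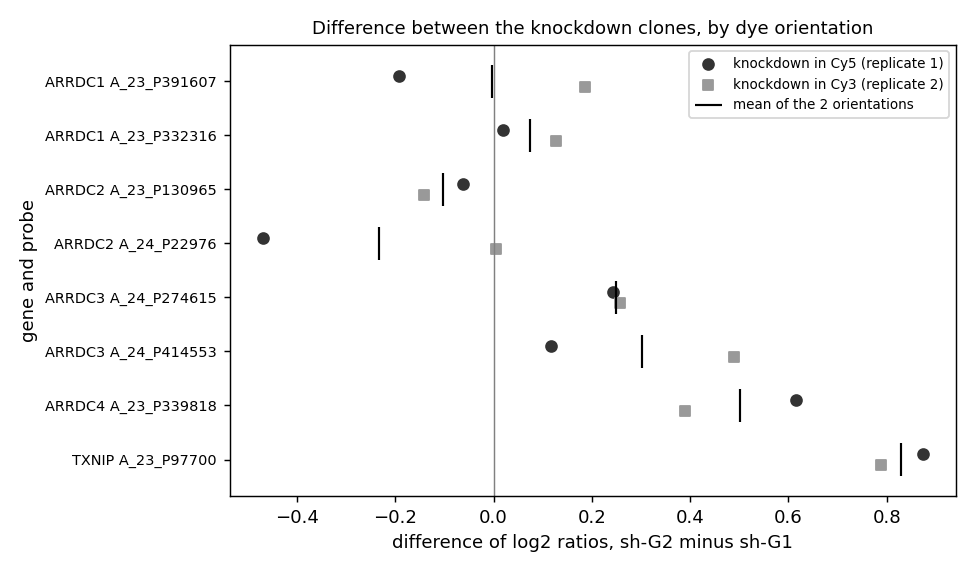
Difference of log2 ratios between the knockdown clones, sh-G2 minus sh-G1 (horizontal axis), for each of the 8 probes (vertical axis), with circles for the Cy5 arrays, squares for the Cy3 arrays and a line at their mean. TXNIP (0.87 and 0.79) and ARRDC4 (0.62 and 0.39) lie above 0 in both orientations, and the brighter ARRDC1 probe lies on both sides of 0.

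The genes whose 4 ratios were most like those of a member were found by the root mean square difference over the 4 arrays. For ARRDC3 they were HOTAIR, a long noncoding RNA (difference 0.15, mean log2 ratio 1.69), RGS2, a regulator of G protein signalling (0.19, mean 1.61), and LRATD1 (0.30, mean 1.73). For ARRDC4 they were KRT18, an epithelial keratin, by the probe A_24_P42136 (0.21, mean -1.96), TRIM6, a ubiquitin ligase (0.26, mean -1.92), and KIF26B, a kinesin family member (0.27, mean -1.96). For TXNIP they were ANKRD36B (0.04, mean -0.26), PCSK4, a proprotein convertase (0.07, mean -0.25), and ATG16L2, a relative of an autophagy protein (0.08, mean -0.24). No member was among the nearest genes of another.

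In 8 lists of alpha-arrestin partners, regulators, cargo and pathways, 98 of 103 genes were measured, each by its brightest probe. None was at least 1.5-fold changed in 1 direction on all 4 arrays, a rule by which 60 of 16882 genes were higher and 218 lower. At so low a share, none of 98 says little about these genes. By limma 0 were called higher, against 0.138% of all probes, and 1 lower, against 0.700%. By gene, with the brightest probe each, that 1 was 1.02% of the 98, against 0.906% called lower and 0.184% called higher of 16882 genes. At an unadjusted p under 0.05, 8 (8.16%) were higher and 8 (8.16%) lower, against 6.24% and 9.09% of all genes. This test takes the 1 ctrl clone as free of spread, and with the spread of the knockdown clones assigned to it limma called 0 probes in all. The medians of the lists lay between -0.08 and 0.07, and that of all probes was -0.004.

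The gene called was IGF1R, the insulin-like growth factor 1 receptor, in the list of reported cargo. Its mean log2 ratio was -1.03 in sh-G1 and -0.87 in sh-G2. Over the clones it fell by 0.95 on the log2 scale (SE 0.07, limma adjusted p = 0.0473). By array it was -1.53 and -0.53 in sh-G1 and -1.17 and -0.56 in sh-G2, a larger fall with Cy5 than with Cy3. The fit uses clone means, so this difference between the dyes does not enter its SE. The call was lost without background correction, with median centring, with both channels required above background and without the first sh-G1 array. The other 10 measured cargo genes did not pass, among them SLC2A1, the glucose transporter GLUT1, at 0.23 (adjusted p = 0.424, limma). EGFR, at -0.69 (adjusted p = 0.146, limma), and F2R, at -0.74 (adjusted p = 0.0921, limma), were lower on every array. At an unadjusted limma p under 0.05, 3 cargo genes (27.3%), IGF1R among them, were lower and 0 higher. Of all genes 9.09% were lower and 6.24% higher. The list was chosen with earlier results of these data known, so these shares and p-values are a description. It was not tested as a set.

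Of the MondoA-MLX and MAX network 12 of 12 genes were measured and 0 passed. Of all genes 0.184% were called higher and 0.906% lower, so 0 calls in this list or the next ones say little. MXD1 was lower on every array, at -0.41 (adjusted p = 0.158, limma). At an unadjusted limma p under 0.05, 1 gene of this list (8.33%) was lower and 0 higher. MLXIP, which encodes MondoA, had a mean log2 ratio of 0.00, and MLX had -0.09. Their part in the values of TXNIP and ARRDC4 was not tested. Of the thioredoxin system 15 of 16 were measured and 0 passed, with TXN, the thioredoxin that TXNIP binds, at -0.09.

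Of the NEDD4-family ligases 9 of 9 were measured and 0 passed, with WWP1 at 0.06 and ITCH at 0.10. Among other arrestin-fold proteins 7 of 9 were measured and 0 passed, with the beta-arrestins ARRB1 at 0.16 and ARRB2 at 0.02. ARRDC5 was left out as dim, being well above background in ctrl on 3 of 4 arrays and in the knockdown channel on 2. The ESCRT and ALIX proteins (11 of 11 measured), through which ARRDC1 vesicles bud, the genes of glucose uptake and glycolysis (24 of 24) and the AMPK and energy stress genes (11 of 12) also gave 0 calls. In the glucose list SLC2A3 was lower on every array, at -0.60 (adjusted p = 0.163, limma). In the energy stress list DDIT4 was lower on every array, at -0.64 (adjusted p = 0.0733, limma), and SESN1 higher, at 0.46 (adjusted p = 0.107, limma). At an unadjusted limma p under 0.05, 3 glucose genes (12.5%) were higher and 2 (8.33%) lower. Of the energy stress genes 1 (9.09%) was higher and 2 (18.2%) lower. Of all genes 6.24% were higher and 9.09% lower.

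**Figure D4:**
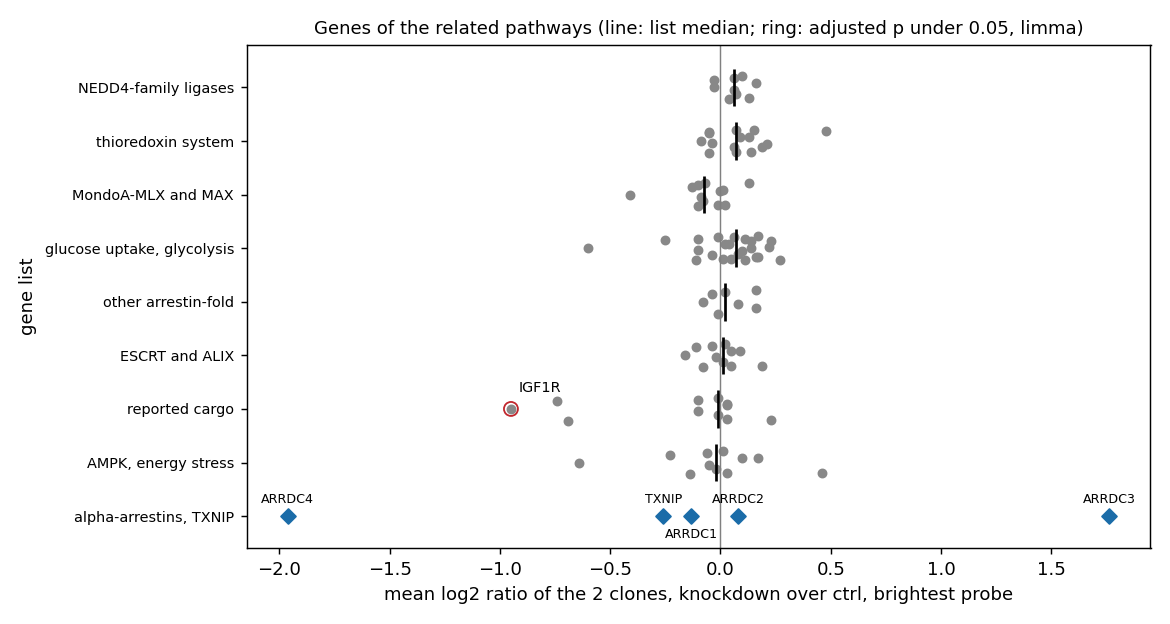
Mean log2 ratio of the 2 clones, knockdown over ctrl (horizontal axis), for each measured gene of the 8 lists (grey points), with a black line at the list median and a ring on genes called by limma; points are offset vertically only for legibility, and the bottom row shows the 5 members (blue diamonds, untested). The list medians lie between -0.08 and 0.07, IGF1R at -0.95 is the gene called, and ARRDC4 at -1.96 and ARRDC3 at 1.76 lie outside the range of the lists.

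Markers of cell types were measured beside the members. Of 9 epithelial ovarian markers limma called 0 higher and 2 lower, KRT18 (-2.32, adjusted p = 0.0365) and KRT8 (-1.03, adjusted p = 0.0316). Of all genes 0.184% were called higher and 0.906% lower. The test takes the 1 ctrl clone as free of spread, and the markers were named after their values were seen. CDH1 was at -0.01. EPCAM was lower on every array, with a mean of -0.33 (adjusted p = 0.405, limma). PAX8 averaged -0.01 over ratios of opposite sign, 0.42 and -0.68 in sh-G1 and 0.66 and -0.43 in sh-G2. The levels of a list were summed on the linear scale, where the brightest genes weigh most, and the log2 of the sum was taken. For the epithelial list it was 14.03 to 14.25 in ctrl, 12.92 to 13.07 in sh-G1 and 13.04 to 13.17 in sh-G2. Of 3 measured fibroblast markers PDGFRA fell by 1.16 on the log2 scale (limma adjusted p = 0.0214). DCN was at -3.17 (adjusted p = 0.187, limma) and COL1A2 at -0.33 (adjusted p = 0.21, limma). The log2 of the fibroblast sum was 14.68 to 14.81 in ctrl, 10.89 to 11.17 in sh-G1 and 12.69 to 12.77 in sh-G2. The 3 leukocyte markers measured lay between -0.07 and 0.04 and the 3 endothelial ones between -0.07 and 0.02, with 0 called. The fibroblast sums had the order sh-G1, sh-G2, ctrl, as the ARRDC4 levels had. That order of the clones came from DCN, at -4.24 in sh-G1 and -2.09 in sh-G2. PDGFRA (-1.11 in sh-G1, -1.21 in sh-G2) and COL1A2 (-0.24 in sh-G1, -0.42 in sh-G2) were lower in sh-G2. In the epithelial sums sh-G1 and sh-G2 overlapped below ctrl. The part of these markers in the values of the 5 genes was not tested.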

How the data were processed

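Expression was measured on 4 Agilent 2-colour arrays. The authors deposited, for each spot, the median intensity and median local background intensity of each channel, the scanner software's flags, and its log10 ratio of Cy5 over Cy3. Agilent Feature Extraction is given as version 8.5.1.1 in the submitters' processing notes and as 10.5.1.1 in the file headers. The deposited series matrix equals that log10 ratio for 3 arrays, and for the second sh-G1 array it equals the ratio's error. A p-value that the software assigns to every spot was also deposited and was not used.

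Outlier spots were dropped. The normexp method (offset 50) corrected the background, ratios were normalised by loess within arrays and turned to knockdown over ctrl, replicate spots of a probe were averaged, and probes passed when on each array at least 1 of their channels was well above background (39151 of 40905). Single-channel levels were further adjusted between arrays (Aquantile). Of 41000 probes, 25398 were named through RefSeq accessions (GRCh38.p14 table). limma 3.58.1 with trend in R 4.3.3 tested the mean of the 2 clones against 0, so that the ctrl clone's own spread does not enter, and sh-G2 against sh-G1 with a dye term, both two-sided with Benjamini-Hochberg adjustment over all probes kept and a threshold of 0.05. A random block used statmod 1.5.0. Both fits were tested on simulated data. Figures used Python 3.11.15 and matplotlib 3.10.9.

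The members and lists were chosen with earlier results of these data known, so no test of a member is printed, for the difference between clones either, for which one had been set out. A gene is given by its brightest probe unless all probes are given. In the lists, called or 1.5-fold genes were named, with MLXIP, MLX, TXN, SLC2A1, WWP1, ITCH, ARRB1 and ARRB2 always, and for ARRDC3, ARRDC4 and TXNIP the 3 nearest genes. Markers, ARRDC5, EGFR, F2R, DDIT4, SLC2A3, SESN1 and MXD1 were named after their values were seen. Protein and probe sequences were not used here. Alternatives were other background corrections, centring, filters, the software's ratios, the series matrix, left-out arrays, and fits with a dye block, clone block or ctrl spread.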

Additional observations from a re-analysis of the deposited data

How the results depend on the processing

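ARRDC3 by its brighter probe stayed past the fold rule upward and ARRDC4 downward under all 14 alternatives tried for that rule. Some of these could not fail, since leaving out an array or taking clone means only relaxes the rule. The filters on dim probes left both mean ratios unchanged. TXNIP stayed below 0 in mean under all 12 tried for it, with a range of -0.42 to -0.10 set by leaving out an array. The number of probes called by limma between knockdown and ctrl was 328. The series matrix holds the scanner software's ratios for 3 arrays and no ratio for the second sh-G1 array, so values from it rest on 3 arrays and change both the processing and the arrays. The count was 526 with the software's ratios, 1003 with the series matrix, 1249 with a replicate block for dye orientation, 2569 with the clone as a random block and 0 where ctrl was assigned the knockdown clones' spread. Without 1 array it was between 378 and 1091. The 1.5-fold rule gave 450 probes, 743 with the series matrix and 222 at 2-fold. The alpha-arrestin probes at least 1.5-fold higher on all arrays were 1, and 2 with the software's ratios or the series matrix, the other being the dimmer ARRDC3 probe. Pathway genes at least 1.5-fold changed were 0, then 1 (F2R) with the software's ratios, 3 (EGFR, F2R and IGF1R) over the 3 arrays of the series matrix and 0 to 2 without 1 array. Those called by limma were 1, then 0 without background correction, with median centring or with both channels above background, 4 over the 3 arrays of the series matrix (DDIT4, EGFR, F2R and IGF1R) and 0 to 6 without 1 array. The probes called between the clones were 48, then 31 with both channels above background and 5 with no replicate block for dye.

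The mean log2 ratio of the brighter ARRDC1 probe, -0.13, was -0.14 with an offset of 0, -0.17 with median centring, 0.041 with the software's ratios, 0.14 over the 3 arrays of the series matrix, -0.083 over both of its probes and -0.30 to 0.036 without 1 array. Its difference between the clones, -0.003, was 0.014 with median centring. ARRDC3 was 1.18 over both of its probes. ARRDC4, at -1.96, was -2.37 with an offset of 0, -2.43 with the software's ratios and -2.47 with the series matrix. The causes of these shifts were not tested. Low signal limits the dimmer ARRDC3 probe and GALNT3, and the 2 clones of 1 shRNA and the single ctrl clone limit every comparison.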
